A study of Mus musculus with 10 samples.

Results

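Sox9, Fgf9, Aard and Vnn1 are genes of the Sertoli cell, the supporting cell of the testis, and they were followed here in the somatic cells of the fetal ovary. They were picked by name, with earlier results of these data known, and all 4 have a row among the 13578 rows of the table. Each library came from the sorted somatic cells of the gonads of 1 female embryo at embryonic day 13.5, and its RNA was sequenced. All embryos were Gulo-/- on a C57BL/6 background, so that they could not make vitamin C and received it through the mother's diet. In 5 embryos vitamin C had been withdrawn over the first weeks of gestation, and in 5 it had been given at a physiological level. The cells were the Oct4-negative fraction of the sort, which leaves germ cells out and can hold supporting, stromal, endothelial and duct cells together. In such a mixture, fewer cells of a type and less RNA per cell cannot be told apart.

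In an XY gonad, Sry switches on Sox9, a transcription factor that commits the supporting cells to the Sertoli fate. The growth factor Fgf9 then keeps Sox9 on and holds back the ovarian signal Wnt4. In an XX gonad, Wnt4, Rspo1 and Foxl2 direct the same precursors to the pregranulosa fate, and Sox9 does not stay on in these cells. Sox9 is also used outside the gonad's supporting cells, in cartilage, neural crest and several duct epithelia. Aard is expressed in Sertoli cells and codes for a protein rich in alanine and arginine. Vnn1 codes for vanin-1, a membrane-anchored pantetheinase that releases pantothenate and cysteamine, and it is a marker of fetal Sertoli cells. Amh, the Sertoli hormone that removes the female ducts in males, has no row in the table under this name or a RefSeq synonym.

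Because Sox9 belongs to a family of related genes, the part of its message that other genes share is shown. Within the coding sequences of the members, capitals mark the runs that also occur in a transcript of another gene, for the genes with the longest ones (GENCODE M21, sense strand, 5′ to 3′), with 9 bases of the member's own sequence on either side.
Sox9 with Sox10: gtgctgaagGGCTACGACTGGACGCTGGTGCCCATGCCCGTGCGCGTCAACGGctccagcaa
Sox9 with Sox18: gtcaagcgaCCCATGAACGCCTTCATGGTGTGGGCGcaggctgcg
Sox9 with Sox7: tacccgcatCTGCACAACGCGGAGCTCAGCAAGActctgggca
Aard with D130058E05Rik: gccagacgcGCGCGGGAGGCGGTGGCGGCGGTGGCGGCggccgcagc
The run with Sox10 is 44 bases long, from base 247 of the Sox9 coding sequence, and the runs with Sox18 and Sox7 are 27 and 25 bases long. The Aard run of 29 bases ends in a stretch of GGC and GGT triplets. In Fgf9 and Vnn1 no run of 20 coding bases occurred in a transcript of another gene. Of the windows of 50 bases along 1 coding transcript of each member, 0 were found in a transcript of another gene. No source used here gives the length of the reads. Sox9 lies on chromosome 11, Fgf9 on 14, Aard on 15 and Vnn1 on 10, and in this annotation Fgf9 alone overlaps another gene, the pseudogene Gm17109 on the opposite strand, which has no row.

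The members did not stand equally low. Expression was given by the authors as regularised log2 (rlog) values, which are normalised between samples but not divided by gene length. Row means ran from 4.07 upwards with a median of 9.12. Sox9 had a mean rlog value of 10.003 ± 0.129 (SD, n = 10 embryos), above 66.0% of all rows. Fgf9 had a mean of 8.42 ± 0.0915 and stood above 37.5% of rows. Aard, at 6.55 ± 0.0677, stood above 14.8% of rows, and Vnn1, at 5.78 ± 0.0545, above 8.79%. Sox9 was thus not low but above the median row, with 4618 rows above it, while the other members were below the median row and Vnn1 had 1193 rows below it. Depth cannot be read from these values, and counting intervals are left out.

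**Figure D1:**
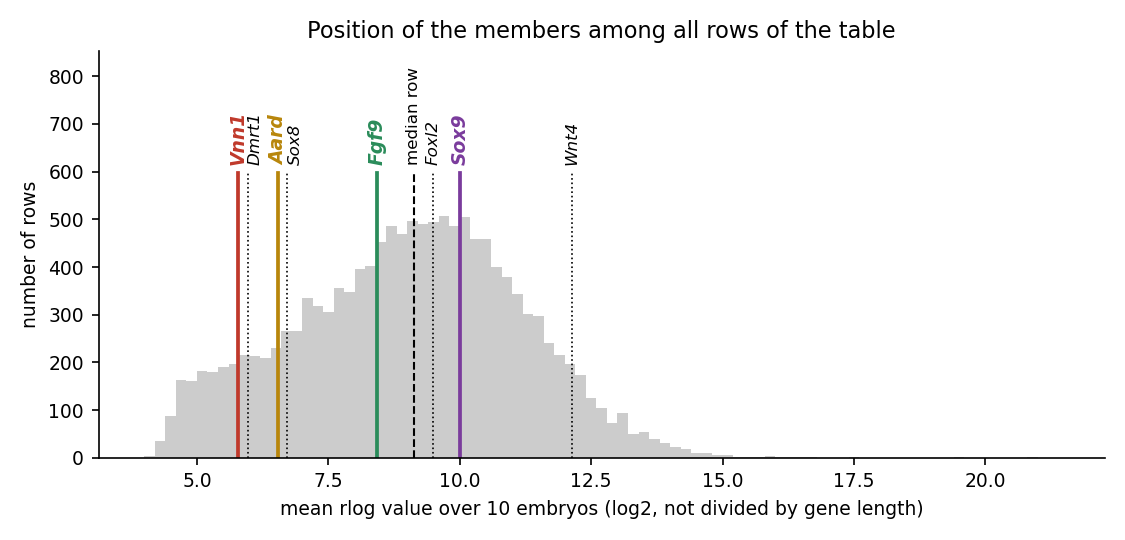
Number of rows (vertical axis) by mean rlog value over 10 embryos (horizontal axis, log2), with the 4 members as coloured lines. Dotted lines mark Dmrt1, Sox8, Foxl2 and Wnt4 and the dashed line the median row at 9.12. Vnn1 at 5.78, Aard at 6.55 and Fgf9 at 8.42 lie below the median row, and Sox9 at 10.003 lies above it.

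Divided by length, Vnn1 was lowest and Aard next in each of the 10 embryos, while the distance between Sox9 and Fgf9 depended on the transcript used for Fgf9. For the scale per length, the log2 of the longest annotated transcript in kb was subtracted from the rlog value, which was possible for 12324 rows (90.8%). On that scale Sox9 stood above 59.2% of these rows, Fgf9 above 33.2%, Aard above 27.1% and Vnn1 above 10.6%. The short transcript of Aard, 1348 bases, moved it closer to Fgf9, whose longest transcript has 3593 bases. Sox9 was above Fgf9 in 10 of 10 embryos on this scale. Fgf9 exceeded Aard by 0.46 ± 0.0781 per length (log2, SD, n = 10), with a smallest gap of 0.30, so these neighbours were apart by more than the spread between embryos. Sox9 exceeded Fgf9 by 1.38 ± 0.153 and Aard exceeded Vnn1 by 1.61 ± 0.0650. The annotated transcript with the Fgf9 coding sequence that was used for the windows above has 1593 bases. With that length for Fgf9 alone, Fgf9 stood above 54.9% of rows and exceeded Aard by 1.63 ± 0.0781. Sox9 then exceeded Fgf9 by 0.21 ± 0.153, being the higher in 9 of 10 embryos. All other rows kept their longest transcript, so the 54.9% is not comparable with the 33.2% above. Which Fgf9 transcript these cells use cannot be read from values per gene.

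Vnn1 was the member whose groups did not overlap. Its rlog values were 5.73, 5.71, 5.77, 5.76 and 5.71 in withdrawn embryos 1 to 5, against 5.81, 5.82, 5.85, 5.85 and 5.82 in supplied embryos 1 to 5. Each of the 5 withdrawn embryos was lower than each of the 5 supplied ones, with a gap of 0.0374 between the groups. The mean was 5.74 ± 0.0275 in withdrawn and 5.83 ± 0.0186 in supplied embryos (SD, n = 5 each). The difference of -0.095 (withdrawn minus supplied, rlog scale, 95% interval from -0.15 to -0.042) is a ratio of 0.937 on that scale, which shrinks the differences of weakly expressed genes most. Over all 13578 rows it did not pass limma (adjusted p = 0.594, the 35th smallest p), and 0.0221% of rows did. Over these samples alone, an exact permutation test of the difference of means gave a two-sided p of 0.00794, the smallest that 5 against 5 embryos allow. Any row whose groups do not overlap has this p, so it restates the separation and adds nothing to it. Groups that do not overlap with the withdrawn ones lower were found in 63 rows, or 0.464% of all rows, and in either direction in 0.81%.

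The separation of Vnn1 came with a very small spread. Its residual SD between embryos of a group was 0.0235, against a median of 0.0503 in the 500 rows nearest to it in level, of which 2 had a smaller one. The SE of the difference of means, as moderated by limma, was 0.0250, a different quantity from the residual SD. The other members varied as rows of their level usually did or more. The residual SD of Aard was 0.0613 and that of Fgf9 0.0794, larger than in 245 and 254 of the 500 rows nearest to each. Sox9 varied most among the members, with a residual SD of 0.135, larger than in 467 of its 500 nearest rows.

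**Figure D2:**
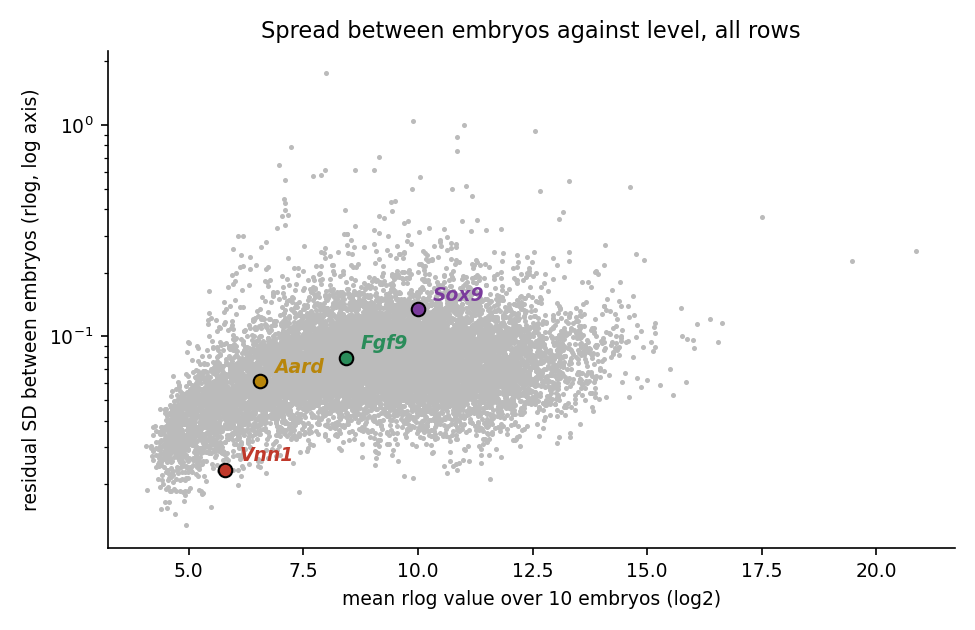
Residual SD between embryos of a group (vertical axis, rlog, log axis) against the mean rlog value over 10 embryos (horizontal axis, log2) for all 13578 rows in grey, with the 4 members coloured. Vnn1 at an SD of 0.0235 lies at the lower edge of the rows of its level, and Sox9 at 0.135 in the upper part of its own.

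Fgf9 was lower in most withdrawn embryos, short of any threshold. Its rlog values were 8.30, 8.31, 8.39, 8.37 and 8.49 in withdrawn embryos 1 to 5, against 8.43, 8.39, 8.44, 8.60 and 8.49 in supplied embryos 1 to 5. In 4 of 5 withdrawn embryos Fgf9 was below the lowest supplied embryo, withdrawn embryo 3 only just, while withdrawn embryo 5 was level with the second highest supplied embryo, so the groups overlapped. The mean was 8.37 ± 0.0755 in withdrawn and 8.47 ± 0.0831 in supplied embryos (SD, n = 5 each). The difference was -0.10 (95% interval from -0.21 to 0.0084, limma adjusted p = 0.947; exact permutation p = 0.0794, two-sided). It was -0.066 without supplied embryo 4, the highest one, and -0.050 without the 3 libraries of highest Fos, which are supplied embryo 4 and withdrawn embryos 2 and 3.

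Aard and Sox9 overlapped widely between the groups. Aard was at 6.59, 6.54, 6.52, 6.41 and 6.52 in withdrawn embryos 1 to 5, against 6.57, 6.51, 6.57, 6.68 and 6.58 in supplied embryos 1 to 5. Its lowest value belonged to withdrawn embryo 4 and its highest to supplied embryo 4, and the other 8 embryos lay between 6.51 and 6.59. The difference of means was -0.067 (95% interval from -0.15 to 0.016, limma adjusted p = 0.961; exact permutation p = 0.135, two-sided). It was -0.041 without withdrawn embryo 4 and -0.043 without supplied embryo 4.

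Sox9 was at 9.94, 10.16, 9.75, 10.12 and 9.94 in withdrawn embryos 1 to 5, against 10.05, 9.90, 10.14, 10.09 and 9.94 in supplied embryos 1 to 5. Both the highest and the lowest value came from withdrawn embryos. The mean was 9.98 ± 0.162 in withdrawn and 10.03 ± 0.1003 in supplied embryos (SD, n = 5 each). The difference of -0.045 (95% interval from -0.19 to 0.10, limma adjusted p = 0.992; exact permutation p = 0.643, two-sided) was smaller than the spread within either group. Its direction rested on withdrawn embryo 3, without which it was 0.012. The interval spans ratios from 0.876 to 1.07 on the rlog scale.

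**Figure D3:**
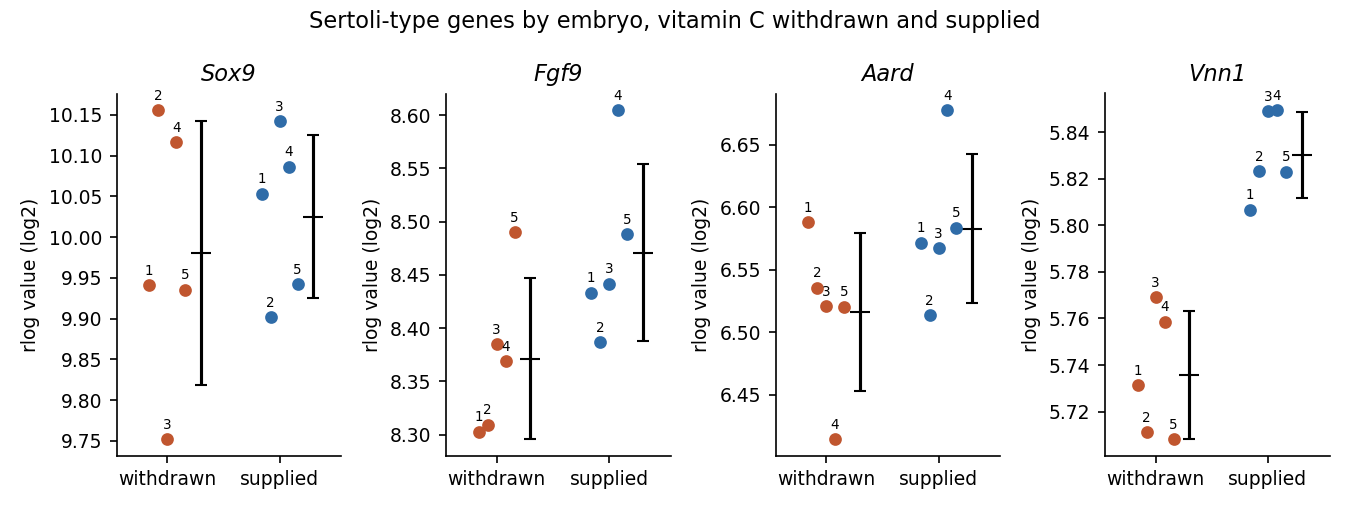
The rlog value (vertical axis, log2, scaled for each gene) of the 4 members in 5 withdrawn embryos (left of each panel) and 5 supplied embryos (right). Points are embryos with their number, and bars give the mean and SD. In Vnn1 each withdrawn embryo is lower than each supplied one, and in the other genes the groups overlap.

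None of the 6 pairs of members passed a test of varying together over the 10 embryos. The closest was Fgf9 with Vnn1, with Pearson's r = 0.578 (permutation p = 0.0796, adjusted over 6 pairs 0.289) and Spearman's rho = 0.491 (permutation p = 0.155, adjusted 0.891). Without the 2 embryos farthest from the median of Fgf9, r was 0.325, and it was 0.159 with the group means subtracted. Fgf9 with Aard had r = 0.553 (permutation p = 0.0962, adjusted 0.289) and rho = 0.248 (permutation p = 0.492, adjusted 0.891), with r = 0.450 without the 2 farthest embryos. Supplied embryo 4 was highest in both genes. Aard with Vnn1 had r = 0.451 (permutation p = 0.197, adjusted 0.395) and rho = 0.358 (permutation p = 0.311, adjusted 0.891). The 3 pairs with Sox9 had r between 0.0645 and 0.116 (adjusted permutation p = 0.864 for each), although Fgf9 and Sox9 sustain each other in the fetal testis.

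By pattern over the 10 embryos, the 3 rows most like each member by Pearson's r are given as a description, chosen as the highest of all rows. For Sox9 they were Irak1bp1 (r = 0.975), Ccdc55 (r = 0.929) and Prickle1 (r = 0.925), and for Fgf9 Lipg (r = 0.929), Dtx4 (r = 0.923) and Synpo2l (r = 0.915). For Aard they were Lmbrd2 (r = 0.917), 1700048O20Rik (r = 0.895) and Park2 (r = 0.894). For Vnn1 they were Mospd2 (r = 0.935), the cystine transporter gene Slc7a11 (r = 0.893) and Chpf2 (r = 0.888). These 3 rows were also lower in withdrawn embryos, by -0.094, -0.17 and -0.15, and group means were not subtracted for these r. None of the 12 rows is on the Sertoli list, which holds only 14 of the 13578 rows.

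Sox9 was set against Foxl2 and Fgf9 against Wnt4, the regulators and signals of the opposed fates. Per length, the log2 difference of Sox9 minus Foxl2 averaged 0.17 in withdrawn and 0.15 in supplied embryos, and Sox9 was the higher of the pair in 7 of 10 embryos. Foxl2, the transcription factor that maintains granulosa identity, stood above 55.9% of rows per length, close to Sox9. It was the lowest of the 7 defining pregranulosa markers, which reached 92.2%. Sox9 was the highest of the 7 defining Sertoli markers with a row, which began at 10.6%. The rlog difference Sox9 minus Foxl2 was 0.51 ± 0.289 in withdrawn and 0.49 ± 0.155 in supplied embryos (SD, n = 5 each), and the groups differed by 0.024 (exact permutation p = 0.857, two-sided). Withdrawn embryos 1 and 4 held the lowest and the highest value, 0.19 and 0.84. Wnt4 was far above Fgf9 in all 10 embryos, with a log2 difference of Fgf9 minus Wnt4 per length of the longest transcript between -3.75 and -3.24. The rlog difference Fgf9 minus Wnt4 was -3.76 ± 0.154 in withdrawn and -3.65 ± 0.126 in supplied embryos, a change of -0.11 (exact permutation p = 0.246, two-sided). Embryo by embryo, withdrawn embryo 1 had the highest Wnt4 and the lowest Fgf9, and supplied embryo 4 the highest Fgf9 beside a Wnt4 of 12.07. Supplied embryo 3 had a high Wnt4 of 12.21 beside an Fgf9 of 8.44. Whether Fgf9 and Wnt4 vary together was not tested.

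**Figure D4:**
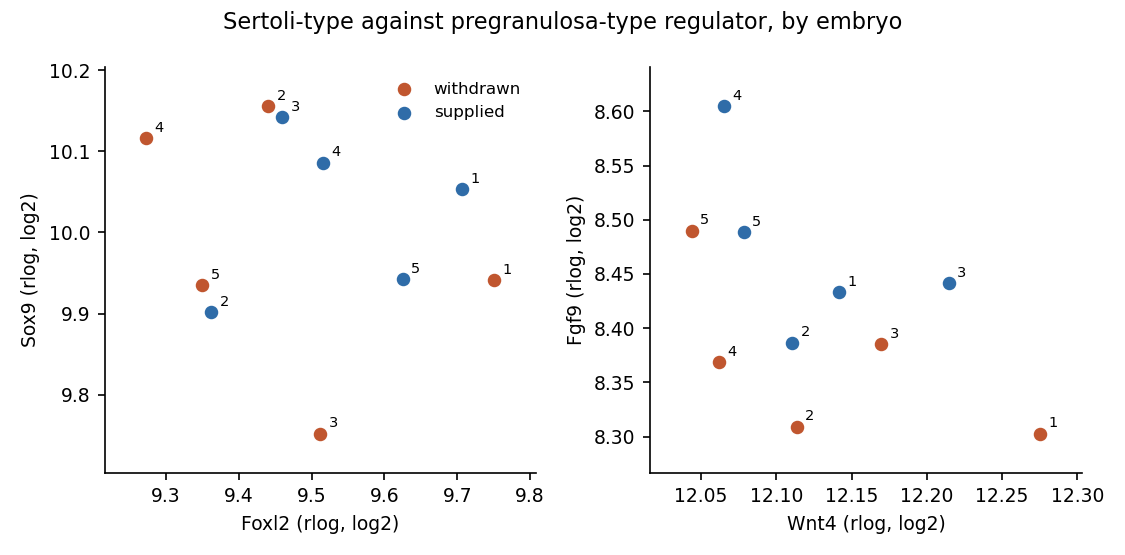
Sox9 against Foxl2 (left) and Fgf9 against Wnt4 (right) in rlog values (log2, both axes), with 5 withdrawn and 5 supplied embryos as numbered points. The 2 groups overlap on both axes, with Sox9 between 9.75 and 10.16 and Fgf9 between 8.30 and 8.60.

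Only part of the wider Sertoli list has a row. Why a gene has no row cannot be told, since the authors' filter is not given. Of its 26 genes 14 have a row, and 10 of these lie below the median row. Besides Amh, the signal Dhh, the prostaglandin D synthase Ptgds, the transcription factors Sry and Sox10, and Cst9, Cbln4, Hsd17b1, Hsd17b3, Tesc, Defb19 and Etd have no row. Sox8, a close relative of Sox9, stood above 15.9% of rows per length, and Dmrt1, a factor that keeps Sertoli cells from turning to the granulosa fate, above 12.6%. By limma 0 of the 14 rows passed, against 0.0221% of all rows. Among the 14, 1, Vnn1, had an unadjusted limma p under 0.05 (5.30% of all rows do, and 2.84% with the withdrawn group lower). Vnn1, Fgf9 and Aard had the 3 smallest p-values of the list, with an unadjusted limma p of 0.068 for Fgf9 and 0.105 for Aard. Members and list were chosen with earlier results of these data known, so this rank is no independent support. Lower values in withdrawn embryos were found in 8 rows and higher ones in 6, with a median of -0.029 against 0.00021 over all rows, of which 49.8% are below 0. All 4 members are among the 8 lower rows and none is among the 6 higher ones. The count and the median thus hold the members' own differences again. Cyp26b1, the enzyme that clears retinoic acid in the fetal testis, had the highest difference of the list with 0.071 (limma adjusted p = 0.991).

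Pregranulosa genes stood higher than the Sertoli rows. Of 26 genes 25 have a row, 4 of them below the median row, and their median level per length was above 74.4% of rows, against 32.4% for the 14 Sertoli rows. By limma 0 passed, against 0.0221% of all rows. Foxl2 differed by -0.069, Wnt4 by 0.011, Rspo1, the secreted WNT enhancer, by 0.0064 and Fst, the activin antagonist follistatin, by 0.0079. The smallest p-values belonged to Irx5 (0.15, limma adjusted p = 0.900), Foxo1 (0.092) and Runx1 (-0.097). The list median was -0.019, with 15 rows below 0 and 10 above.

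**Figure D5:**
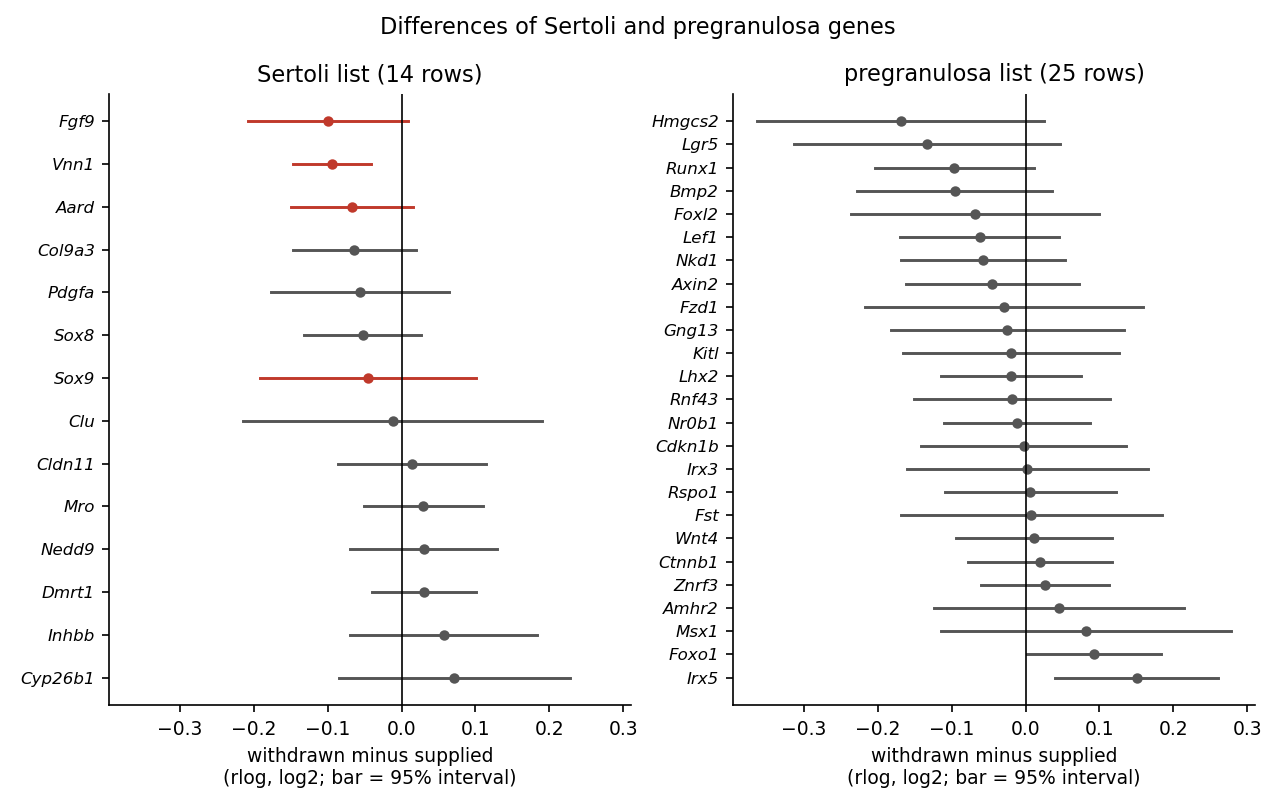
Withdrawn minus supplied difference (horizontal axis, rlog, log2) with its 95% interval for the 14 rows of the Sertoli list (left, the 4 members in red) and the 25 rows of the pregranulosa list (right). The difference of Vnn1, -0.095, has an interval below 0, those of Irx5 and Foxo1 have one above 0, and none of the rows passed over all genes.

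Of the genes that act on the members, a larger part has a row than of the Sertoli list. Of 22 regulators of Sox9, 19 have a row and 0 passed limma (0.0221% of all rows did), with a median of -0.011. Nr5a1, which acts on the Sox9 enhancer with Sry, and Gata4, which is needed for Sry expression, differed by -0.041 and -0.047, the gonadal regulators Wt1 and Lhx9 by 0.038 and -0.041, and Dmrt1 by 0.030. The smallest p-values were those of the growth factor receptor gene Igf1r (0.12, limma adjusted p = 0.928), Gadd45g (-0.14), which acts upstream of Sry, and the Gata4 partner Zfpm2 (0.083). Of 21 genes of the FGF pathway, 20 have a row and 0 passed, with a median of -0.0040. Fgfr2, the receptor through which Fgf9 acts in the fetal testis, stood above 91.7% of rows per length and differed by 0.031 (95% interval from -0.075 to 0.14). Fgfr1 differed by 0.10 (limma adjusted p = 0.931), against -0.10 for Fgf9, and the proteoglycan gene Gpc3 by 0.095.

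Around Vnn1, 11 of 12 genes of pantetheine and coenzyme A metabolism have a row and 0 passed limma (0.0221% of all rows did). Vnn3, its neighbour in the vanin family, has none. Cdo1, which oxidises cysteine, was higher by 0.14 in withdrawn embryos (limma adjusted p = 0.922) and the pantothenate kinase gene Pank1 was at -0.062, with a list median of -0.00092. Of the prostaglandin D2 pathway, through which Sertoli cells can reinforce Sox9, 7 of 12 genes have a row and 0 passed. Ptges3, Hpgd and Ptgs1 had the smallest p-values, with differences of -0.061, -0.084 and -0.038.

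Markers of cell types other than supporting cells were read in the same libraries. Of these lists 0 rows passed limma, against 0.0221% of all rows. Sox9-bearing duct epithelium was represented by all 18 genes of the mesonephric list, with a mean rlog value between 8.07 and 8.27 in withdrawn and between 8.12 and 8.27 in supplied embryos, and 15 of 18 rows below 0. Its defining markers stood above 22.7% (Cdh1) to 64.5% (Epcam) of rows per length, with Gata3 at 31.4%, Pax2 at 39.9% and Pax8 at 60.5%. The smallest p-values were those of Krt8 (-0.14), Ret (-0.13) and Cldn6 (-0.10). Of 18 cartilage genes 9 have a row, with list means from 8.49 to 8.60 in withdrawn and from 8.51 to 8.58 in supplied embryos. Col2a1, a direct target of Sox9 in cartilage, was at 7.37 to 7.76 in withdrawn and 7.55 to 7.87 in supplied embryos (difference -0.21, limma adjusted p = 0.879), while Col9a2 and Acan differed the other way, by 0.17 and 0.12. The cartilage list had 4 rows below 0 and 5 above, with a median of 0.0034, and Col9a1 and Matn1 have no row. Of 14 neural crest and glial genes 8 have a row, 7 of them below 0, with a median of -0.088, and the markers Sox10 and Foxd3 have none. The list mean was between 7.54 and 7.62 in withdrawn embryos, against 7.54 to 8.04 in supplied ones, where supplied embryos 2 and 3 stood apart at 8.04 and 7.80. Besides Ret, its smallest p-values belonged to Nefm (-0.48) and Elavl4 (-0.10). Stromal genes had list means from 12.40 to 12.54 in withdrawn and from 12.27 to 12.47 in supplied embryos, with 14 of 16 rows above 0 and Dcn (0.24), Col3a1 (0.19) and Pdgfra (0.15) of smallest p. The endothelial genes had list means from 8.68 to 8.82 in withdrawn and from 8.75 to 8.94 in supplied embryos, with 10 of 14 rows below 0 and Eng (-0.39, limma adjusted p = 0.210), Ramp2 (-0.20) and Cdh5 (-0.069) of smallest p. The part of these cells in the levels and differences of the 4 members was not tested. Of 8 Y-linked genes 0 have a row, Xist was among the highest rows (14.68 to 15.21 in withdrawn and 14.40 to 15.00 in supplied embryos), and the germ cell markers Pou5f1, Ddx4 and Dazl have no row. Of 15 germ cell genes 6 have a row, with Tdrd1 (-0.20, limma adjusted p = 0.167), Tfap2c (0.067) and Sall4 (0.22) of smallest p. Of 13 steroidogenic genes 9 have a row, with Akr1cl (-0.22), Star (-0.11) and Prlr (0.045) of smallest p, and the markers Cyp11a1, Cyp17a1 and Insl3 have none.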

How the data were processed

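RNA of sorted gonadal somatic cells of 10 embryos was sequenced, from 2 ng of total RNA per sample with a low-input total RNA kit, per the labels' protocols. The authors deposited 1 table of rlog values, on a log2 scale in which low genes are shrunken. The submitters' processing notes name build mm9, DESeq2 1.20.1, TopHat2 2.1.1 and Trim Galore 0.4.0; the counting, its use of strand and the authors' filter are not given in the sources used here. Samples were grouped by the treatment label. The labels do not say whether embryos sharing the first number of their titles are litter mates, so a p-value here speaks for the spread among these embryos only.

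Members and gene lists were chosen with earlier results of these data known. All 13578 rows (mean minimum 3, which removed 0) were fitted with limma 3.58.1 in R 4.3.3, as withdrawn against supplied, allowing a variance trend, with Benjamini-Hochberg adjustment at 0.05. Single values were tested by exact permutation over 252 orders, relations between members with 100000 permutations. Named are the members, 3 rows of smallest p in each list described, 20 fixed genes and 3 rows most like each member. Other genes named are defining markers of cell types or have no row. Chromosomes, gene overlaps, transcript lengths and shared sequences came from GENCODE M21 (GRCm38), whose positions are not printed since the build differs from that of the files. The fit was tested on simulated data. Other settings were other mean minimums (5, 7 or none), no variance trend, robust variance, median centring, quantile normalization, sample weights, a replicate block, averaging of embryos that share a title number and leaving out each embryo; leaving out the 3 libraries of highest Fos and the coding transcript length of Fgf9 were added after seeing the data.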

Additional observations from a re-analysis of the deposited data

Results flagged for a closer look

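Of 104 sets of 5 embryos examined (each named gene and both log differences, in either group), 6 held an embryo far from the others by Dixon's criterion; chance alone flags about 1 in 20 sets. None of the 8 sets of the 4 members was among them. Cyp26b1 was at 8.88 in supplied embryo 4, against 8.48 to 8.60 in the other supplied embryos, the embryo that also held the highest Fgf9 and Aard. Pank1 was at 10.33 in the same embryo, against 10.59 to 10.62. Acan was at 8.01 in withdrawn embryo 2, against 8.24 to 8.33 in the other withdrawn embryos. The germ cell genes Sall4 and Tfap2c were high in withdrawn embryo 5, at 6.72 and 4.83, against 5.83 to 5.96 and 4.62 to 4.68. Xist was at 15.21 in withdrawn embryo 3, the embryo of lowest Sox9, against 14.68 to 14.79. Supplied embryo 4 and withdrawn embryos 2 and 3 are the 3 libraries of highest Fos, and withdrawn embryo 5 is not among them.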

How the results depend on the processing

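None of the 4 members passed limma's threshold in any setting run. Adjusted p ranged from 0.955 to 0.999 for Sox9, 0.802 to 0.999 for Fgf9, 0.807 to 0.999 for Aard and 0.524 to 0.999 for Vnn1. Leaving out each embryo in turn gave differences from -0.089 to 0.012 for Sox9 (0.012 without withdrawn embryo 3), -0.13 to -0.066 for Fgf9, -0.085 to -0.041 for Aard and -0.10 to -0.088 for Vnn1. Sox9 minus Foxl2 ranged from -0.058 to 0.10, below 0 without withdrawn embryo 2 or 4 (-0.026 and -0.058) and without supplied embryo 1 or 5 (-0.012 and -0.020), and Fgf9 minus Wnt4 from -0.16 to -0.058. Without the 3 libraries of highest Fos, Sox9 was at -0.012, Aard at -0.051 and Vnn1 at -0.093. At a mean minimum of 7, Aard and Vnn1 are not tested. Of all rows 3 passed; the count was 1 at a mean minimum of 7, without variance trend, with quantile normalization and with shared title numbers averaged, 5 with robust variance and with sample weights, and 0 to 4 with an embryo left out (0 without withdrawn embryo 5 or supplied embryo 1, 1 without withdrawn embryo 2 or 4). Division by transcript length moved the level percentiles to 59.2 for Sox9, 33.2 for Fgf9, 27.1 for Aard and 10.6 for Vnn1. With its coding transcript Fgf9 was at 54.9, but all other rows kept their longest transcript there. Deviations of embryos with the same replicate number correlated between -0.36 and 0.17, and 1 of 10 embryos correlated best with its own number. These correlations gave little sign of pairing by number, but they cannot show whether embryos shared a litter or batch. With a replicate block, 2 rows passed and Vnn1 had a limma adjusted p of 0.999. Low levels limit Vnn1 and Aard most, since rlog values there are shrunken.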
